A study of Mus musculus with 12 samples.

Results

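The genes examined here mark the endothelial cells that line the blood vessels of the mouse adrenal. They are *Kdr* and *Flt1* (VEGF receptors), *Tek* and *Tie1* (receptors of the angiopoietin system), *Eng* (a TGF-β co-receptor), *Plvap*, *Egfl7* and *Emcn* (proteins of fenestrae, matrix and cell surface), and *Pecam1* and *Cdh5* (junction proteins). They were chosen by name, and all 10 of 10 have a row among the 39017 genes counted. RNA from whole adrenals, trimmed of fat that adhered to them, was sequenced in 12 libraries, from what the labels give as 6 Ctrl (control) females and 6 βCat-GOF females. All were 10 to 11 weeks old, on a mixed sv129-C57Bl/6 background, and carried ASCre/+ in the genotype field of the labels (the titles call the Ctrl mice wild type), which places Cre under the AS (Cyp11b2) locus used by zona glomerulosa (zG) cells. The βCat-GOF mice also carried Ctnnb1fl(ex3)/+, an allele from which Cre removes the exon whose loss stabilizes β-catenin. That driver is not an endothelial one, so in this design the vessels neighbour the targeted cells and are not the target.

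The adrenal cortex is among the most densely vascularized tissues. Its fenestrated capillaries run between the cords of steroid cells, bring ACTH, angiotensin and cholesterol, and carry the steroids away. VEGF-A made by the steroid cells signals to endothelium through KDR, while FLT1 binds the same ligand tightly and signals weakly. Angiopoietin 1 activates TEK, angiopoietin 2 often opposes it, and TIE1 forms complexes with TEK.

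The 5′ flanks of *Kdr* and *Flt1*, the pair of VEGF receptors whose ratio is described further on, are shown with the letters GGAAG (or CTTCC on the other strand) in capitals. This string is a longer form of GGAA, the core bound by ETS factors such as ERG and FLI1, which are known regulators of endothelial genes. GGAA without the added G also stands in small letters in both flanks and was not counted. The sequences are the 250 bases before the start of the RefSeq gene on GRCm38.p6, read 5′ to 3′ on the minus strand, at chr5:75978456-75978705 for *Kdr* and chr5:147726012-147726261 for *Flt1*.
Kdr: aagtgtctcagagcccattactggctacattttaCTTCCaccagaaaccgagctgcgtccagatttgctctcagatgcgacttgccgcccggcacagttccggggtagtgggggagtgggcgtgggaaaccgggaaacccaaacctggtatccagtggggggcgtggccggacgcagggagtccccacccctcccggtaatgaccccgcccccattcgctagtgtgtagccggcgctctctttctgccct
Flt1: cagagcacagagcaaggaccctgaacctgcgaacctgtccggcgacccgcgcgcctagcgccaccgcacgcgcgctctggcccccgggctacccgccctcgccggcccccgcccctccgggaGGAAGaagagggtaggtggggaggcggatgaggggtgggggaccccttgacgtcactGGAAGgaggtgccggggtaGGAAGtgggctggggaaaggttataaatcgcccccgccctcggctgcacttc
The string GGAAG occurs 1 time before *Kdr* and 3 times before *Flt1*, which is no count of all GGAA cores. There were 9 flanks for 7 of the 10 genes (3 of them for *Egfl7*), and 7 of these 9 hold GGAAG, beside 64.1% of the 32851 flanks of all genes. *Tie1* has 6 matches of GGAAG and *Tek* has 0, though TTCC, the shorter core on the other strand, does occur before *Tek*. The core of the factor family that includes GATA2, spelled GATAA, occurs in 1 of the 9 flanks and in 22.6% of all flanks. CTTTGA, a core bound by the TCF and LEF partners of β-catenin, occurs in 1 of the 9 (a flank of *Egfl7*) and in 13.8% of all flanks. All were searched on both strands, and none of the 3 strings of letters contains another.

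Between 13484675 and 25625494 reads per mouse were counted on genes, and 3 counts correspond to between 0.117 and 0.222 CPM (the counts of a gene scaled to a common library total). *Ctnnb1* lay between 20273 and 22606 normalized counts in Ctrl and between 19229 and 22432 in βCat-GOF adrenals, and counts of the whole gene cannot show the loss of 1 exon. The labels of all Ctrl mice begin with the same number, those of 5 βCat-GOF mice with another, and that of βCat-GOF 5 with yet another. Whatever this number stands for cannot be told apart from the genotype. The labels of Ctrl 1 and 2, of Ctrl 3 and 4 and of βCat-GOF 1 and 2 repeat a stem, and whether such a pair is related animals or repeat libraries of the same mouse cannot be told from the labels. Each library was counted as a mouse, and p-values are too small if some are repeats. Of the 14953 genes tested, 222 (1.48%) passed in the higher direction (βCat-GOF above Ctrl) and 130 (0.869%) in the lower direction, by the cut-offs of the study's methods (fold change above 1.4, adjusted p under 0.05, base mean above 100). On the adjusted p alone these were 2.16% and 1.52%. The test throughout is edgeR's quasi-likelihood test with Benjamini-Hochberg adjustment over all genes tested.

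All 10 endothelial genes were counted in every mouse, with between 607 and 4649 reads. Per length of their annotated exons (RPKM, the CPM divided by the exon length in kilobases), *Plvap*, the protein of the diaphragms across fenestrae, had the highest level in Ctrl adrenals with 77.3 ± 10.5 (SD, n = 6 mice). *Eng* (23.9 ± 1.32), *Emcn* (23.8, from 21.9 to 25.7), *Tek* (21.3 ± 2.52), *Kdr* (18.5 ± 2.90), *Pecam1* (14.8 ± 0.876), *Tie1* (14.8 ± 1.72), *Cdh5* (13.1 ± 1.76) and *Egfl7* (12.5 ± 1.36) followed. *Flt1* had the lowest value, 6.63 ± 0.694 RPKM. From *Eng* down to *Egfl7*, the ranges of neighbours in this order overlapped between mice. *Plvap* stood above *Eng*, and *Flt1* below *Egfl7*, without overlap. In βCat-GOF adrenals *Plvap* was again at the top with 65.0 ± 15.6 and *Flt1* at the bottom with 6.88 ± 0.934 RPKM, and *Emcn* and *Eng* changed places. A level per length divides by the exons of all annotated transcripts of a gene, so a gene with many long isoforms gets a low value.

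None of the 10 genes passed the cut-offs in either direction, and none had an adjusted p under 0.05. For 9 of 10 the fitted mean was lower in βCat-GOF adrenals, against 50% of all genes tested. The median log2 fold change of the 10 was -0.17, beside 0.0001 over all genes tested. At an unadjusted p under 0.05, 3 of the 10 (*Kdr*, *Tek* and *Eng*) were lower, where 10.7% of all genes tested were lower and 9.73% higher. With 1 mouse of each pair of repeated labels left out this was 0 of 10. The 95% intervals were narrow enough to exclude a rise of 1.4-fold for all 10 genes and a fall of that size for 6 of them. In RNA of a whole gland, fewer endothelial cells and less RNA of these genes per cell cannot be told apart.

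**Figure D1:**
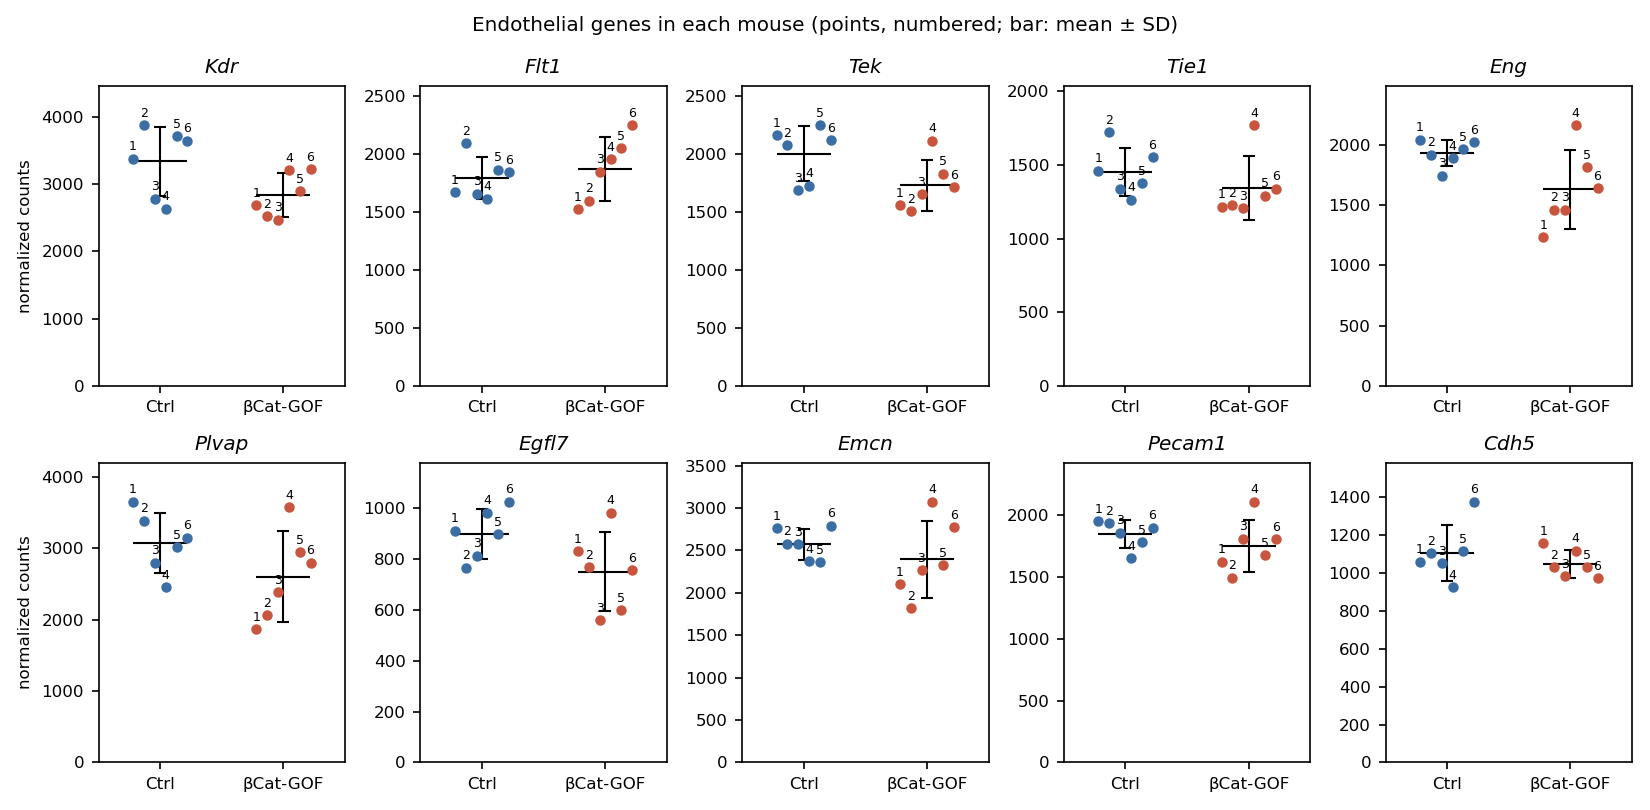
Normalized counts (y axis, from 0) of each of the 10 endothelial genes in 6 Ctrl and 6 βCat-GOF mice. Points are mice, numbered as in the text, and bars are the mean ± SD. The groups overlap for all 10 genes, and βCat-GOF 4 is the highest βCat-GOF mouse for 7 of them.

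*Kdr*, the main signalling receptor of VEGF-A, lay between 2632 and 3875 normalized counts in Ctrl adrenals (median 3511) and between 2469 and 3222 in βCat-GOF adrenals (median 2794). Normalized counts are the counts divided by a size factor per library. All 6 βCat-GOF mice were below the Ctrl median, but only 2 were below every Ctrl mouse, because Ctrl 3 (2780) and Ctrl 4 (2632) were as low as the βCat-GOF group. The log2 fold change was -0.24 (SE 0.11), with an adjusted p of 0.24.

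*Flt1*, which binds VEGF-A with little signalling of its own, had 1615 to 2091 normalized counts in Ctrl adrenals (median 1756) and 1526 to 2249 in βCat-GOF adrenals (median 1902). Its groups overlapped widely, with βCat-GOF 1 and 2 below every Ctrl mouse and βCat-GOF 6 above every one. It was the only one of the 10 whose mean was higher in the βCat-GOF group, with a log2 fold change of 0.05 (SE 0.10, 95% interval -0.16 to 0.27, adjusted p = 0.81). This sign turned without βCat-GOF 6 (-0.01) and with 1 surrogate variable in the model (-0.04).

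The number of *Flt1* reads per *Kdr* read in the same mouse is independent of library size. In Ctrl adrenals the ratio of normalized counts was 0.494, 0.540, 0.597, 0.614, 0.503 and 0.506 for mice 1 to 6. In βCat-GOF adrenals it was 0.567, 0.634, 0.748, 0.611, 0.709 and 0.698. The ratio was higher in 4 of 6 βCat-GOF mice than in every Ctrl mouse, and the others, mice 1 and 4, lay within the Ctrl range. On the log2 scale the means differed by 0.29, a 1.22-fold higher ratio (exact permutation test, two-sided, p = 0.013, adjusted p = 0.026 over the 2 ratios tested). The members were chosen with earlier results of these data known, and the adjustment over 2 ratios takes no account of that choice. Leaving out 1 mouse at a time kept the difference between 0.25 and 0.33, with adjusted p from 0.0173 to 0.0519 in exact permutation tests. It passed 0.05 in 5 of these 12 fits and missed it without any of Ctrl 1, 2, 5 or 6 or βCat-GOF 3, 5 or 6 (adjusted p = 0.0519 in each, exact permutation test). The Ctrl mice with the highest ratios, 3 and 4, also had the highest summed counts of chromaffin markers (12043 and 11820 CPM, against 3928 to 8795 in the other Ctrl mice). With 1 mouse of each pair of repeated labels left out, the difference was 0.33 and its adjusted p 0.0635 (exact permutation test). Without Ctrl 3 and 4 it was 0.37, and the part of the medulla in this ratio was not tested.

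**Figure D2:**
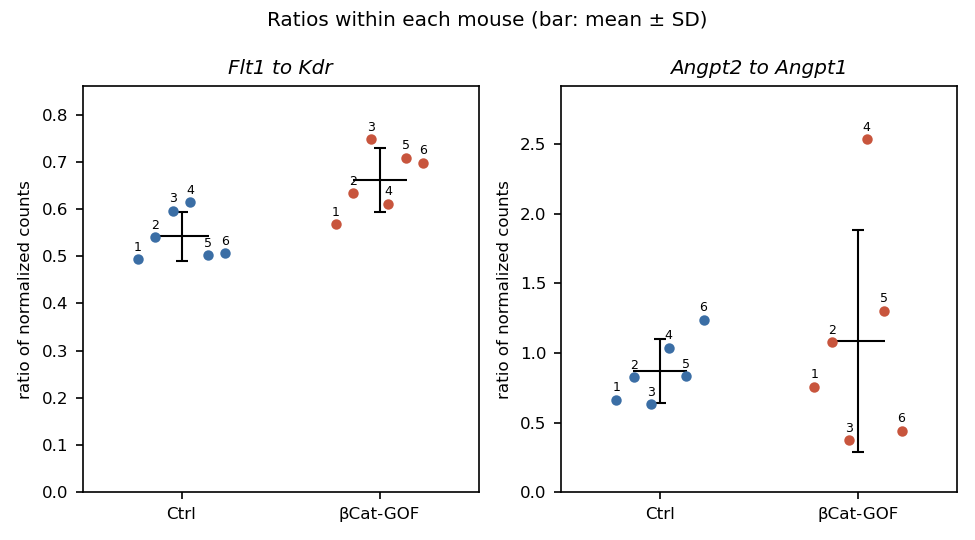
Ratio of the normalized counts of *Flt1* to *Kdr* (left) and of *Angpt2* to *Angpt1* (right) within each mouse, on axes from 0. Points are numbered mice and bars the mean ± SD of 6. The *Flt1* to *Kdr* ratio runs from 0.494 to 0.614 in Ctrl and from 0.567 to 0.748 in βCat-GOF mice. The *Angpt2* to *Angpt1* ratio spreads from 0.377 to 2.54 in βCat-GOF mice.

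Among the ligands of these receptors, *Vegfa* had 3793 to 6056 normalized counts in Ctrl (median 5253) and 4637 to 12569 in βCat-GOF adrenals (median 6874). βCat-GOF 1 (7891), 2 (12569) and 5 (8615) exceeded every Ctrl mouse, and the other 3 lay within the Ctrl range. The log2 fold change was 0.59 (SE 0.22) with an adjusted p of 0.153. *Vegfb* (-0.14, adjusted p = 0.422) and the co-receptor *Nrp2* (-0.24, adjusted p = 0.265) also missed the threshold, and of the 8 VEGF ligands and other VEGF receptors tested, 0 passed the cut-offs.

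*Tek*, the angiopoietin receptor, had 1688 to 2248 normalized counts in Ctrl adrenals (median 2098) and 1507 to 2115 in βCat-GOF adrenals (median 1682). The lowest values were those of βCat-GOF 1, 2 and 3, below every Ctrl mouse, while βCat-GOF 4 lay among the high Ctrl mice. The log2 fold change was -0.22 (SE 0.10, adjusted p = 0.234). *Tie1* had 1264 to 1722 normalized counts in Ctrl (median 1417) and 1204 to 1770 in βCat-GOF adrenals (median 1258). Here 5 of 6 βCat-GOF mice were between 1204 and 1338 and βCat-GOF 4 alone was at 1770, above all Ctrl mice. Its log2 fold change was -0.12 (SE 0.11, adjusted p = 0.559).

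The ligands of *Tek* were scarce. *Angpt1*, its agonist, had 113 to 189 normalized counts in Ctrl and 44.3 to 154 in βCat-GOF adrenals, with a log2 fold change of -0.36 (SE 0.24, adjusted p = 0.437). *Angpt2*, which in many vessels opposes it, had a log2 fold change of -0.27 (SE 0.31, adjusted p = 0.674). Their ratio did not separate the groups, with a log2 difference of 0.05 (exact permutation test, two-sided, p = 0.92, adjusted p = 0.92). It ranged from 0.635 to 1.24 in Ctrl and from 0.377 in βCat-GOF 3 to 2.54 in βCat-GOF 4, and the sign of the difference turned to -0.26 without the latter.

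*Ptprb*, the phosphatase that removes phosphate from TEK, lay between 1304 and 1690 normalized counts in Ctrl (median 1407) and between 996 and 1297 in βCat-GOF adrenals (median 1180). The groups did not overlap, which held for 1.16% of all genes tested in the lower direction. Its log2 fold change of -0.32 (SE 0.09) had an adjusted p of 0.0738 and its fold was below the cut-off. *Svep1*, a matrix ligand of TIE1, had a log2 fold change of -0.62 (SE 0.25, adjusted p = 0.185). Of the 6 genes of the angiopoietin pathway, 4 had a lower mean and 0 passed the cut-offs.

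*Eng*, a co-receptor for BMP9 and TGF-β in endothelium, was tightly held in Ctrl adrenals, between 1746 and 2046 normalized counts (median 1944). In βCat-GOF adrenals it ran from 1234 in mouse 1 to 2165 in mouse 4 (median 1553). Thus 4 of 6 βCat-GOF mice were below every Ctrl mouse and 1 was above every one. The mean ± SD was 1933 ± 108 in Ctrl and 1631 ± 327 in βCat-GOF adrenals (n = 6 each). The log2 fold change was -0.26 (SE 0.11, adjusted p = 0.222), and without βCat-GOF 4 it was -0.35 with an adjusted p of 0.0572. Exons of *Fpgs* on the opposite strand cover 1.51% of its exons. Among the 9 genes tested of the BMP9 and TGF-β pathway, 0 passed the cut-offs, with *Tgfbr2* (-0.20, adjusted p = 0.191), *Bmpr2* (-0.30, adjusted p = 0.271) and *Id2* (-0.27, adjusted p = 0.342) nearest to the threshold.

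*Plvap* had 2453 to 3650 normalized counts in Ctrl (median 3077) and 1861 to 3573 in βCat-GOF adrenals (median 2589). βCat-GOF 1, 2 and 3 (1861, 2060 and 2379) were below every Ctrl mouse, and βCat-GOF 4 (3573) was close to the highest of them. The log2 fold change was -0.25 (SE 0.15, adjusted p = 0.357). *Emcn*, an endothelial sialomucin of capillaries and veins, had 2361 to 2791 normalized counts in Ctrl (median 2579) and 1816 to 3076 in βCat-GOF adrenals (median 2297). Its coefficient of variation (CV, the SD as a percent of the mean) was 7.12% in Ctrl and 19.2% in βCat-GOF adrenals, with 4 βCat-GOF mice below every Ctrl mouse and 1 above. Its log2 fold change was -0.11 (SE 0.11, adjusted p = 0.611), and it was 0.01 without βCat-GOF 1 and 2.

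*Egfl7*, a protein secreted by endothelium into the matrix, had 765 to 1025 normalized counts in Ctrl (median 904) and 558 to 982 in βCat-GOF adrenals (median 761). βCat-GOF 3 (558) and 5 (598) were the lowest, a different pair from that of *Plvap* and *Emcn*. The log2 fold change was -0.27 (SE 0.13, adjusted p = 0.273). Exons of *Agpat2*, *Gm20532* and the miR-126 genes cover 11.2% of its exons, and reads there could belong to either gene, since whether the counting used the strand is not given in the sources used here. *Egfl7* hosts miR-126, an abundant microRNA of endothelium. It is shown because its gene lies inside a member, with the seed (bases 2 to 8) in capitals, from RefSeq on GRCm38.p6 at chr2:26591402-26591423, plus strand.
miR-126a-3p: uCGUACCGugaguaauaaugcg
*Mir126a* had 0 counts in every mouse, where sampling alone would allow up to 3 counts per library. Its gene lies in an exon of *Egfl7* on the same strand, and how reads shared by both genes were counted is not given in the sources used here. The value of 0 therefore sets no limit on its level. The mRNA libraries were not made for molecules of this length.

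The junction genes were among those with the smallest differences. *Pecam1*, the adhesion molecule CD31, had 1651 to 1949 normalized counts in Ctrl (median 1878) and 1493 to 2108 in βCat-GOF adrenals (median 1741), a log2 fold change of -0.08 (SE 0.08, adjusted p = 0.616). *Cdh5*, VE-cadherin, had 925 to 1376 normalized counts in Ctrl (median 1082) and 972 to 1156 in βCat-GOF adrenals (median 1031), a log2 fold change of -0.08 (SE 0.09, adjusted p = 0.672). No βCat-GOF mouse left the Ctrl range of *Cdh5*. Its 95% interval ran from -0.28 to 0.12, and that of *Pecam1* from -0.26 to 0.10, both short of a 1.4-fold change in either direction.

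**Figure D3:**
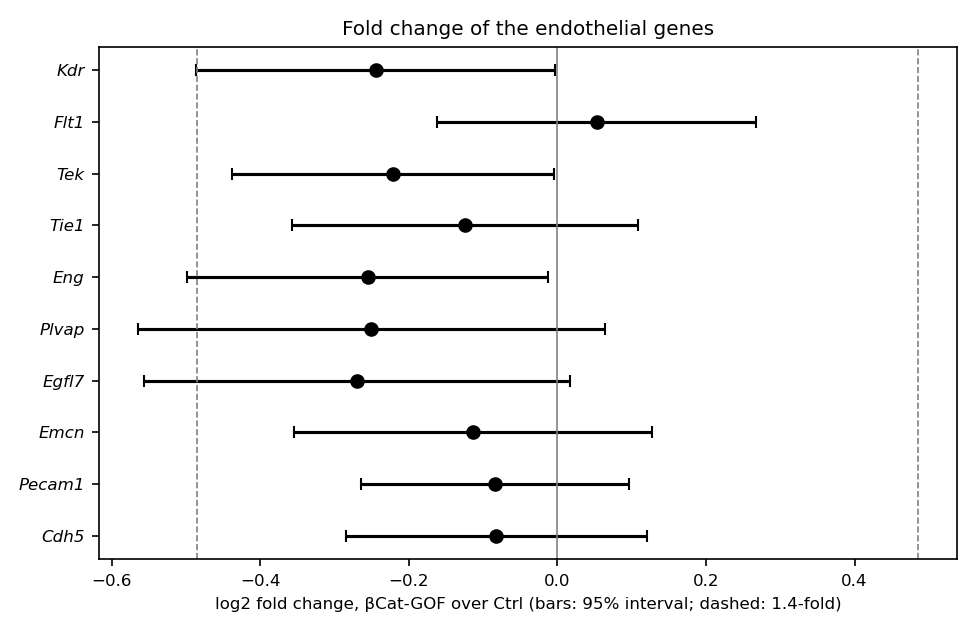
log2 fold change (βCat-GOF over Ctrl, x axis) of the 10 endothelial genes with 95% intervals, from 6 against 6 mice. Dashed lines mark 1.4-fold. Of the 10 estimates, 9 lie below 0, between -0.27 and -0.08, and *Flt1* lies at 0.05. No interval reaches the upper dashed line.

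Seen mouse by mouse, most of the genes were high or low together. The level of each gene in log2 CPM was set against its Ctrl mean. In βCat-GOF 2 all 10 genes were below that mean (median deviation -0.35), in mice 1, 3 and 5 9 of 10 were (-0.24, -0.30 and -0.15) and in mouse 6 8 of 10 (-0.15). In βCat-GOF 4 only *Kdr* was below it, and the median deviation was 0.15. The Ctrl mice differed too, with 9 of 10 genes below the mean in Ctrl 3 (-0.12) and Ctrl 4 (-0.17) and 0 of 10 in Ctrl 6 (0.09). Summed over the 10 genes, Ctrl mice had 879 to 1081 CPM and βCat-GOF mice 773 to 1103 CPM. The CV was larger in βCat-GOF than in Ctrl adrenals for 8 of 10 genes, and smaller for *Kdr* (15.5% in Ctrl, 11.6%) and *Cdh5* (13.5% in Ctrl, 6.99%). The share of all genes tested with a larger CV in βCat-GOF adrenals was not computed, so this count does not set the 10 apart from other genes. Without βCat-GOF 4, the highest βCat-GOF mouse for 7 of the 10 genes, the median log2 fold change was -0.25 and the smallest adjusted p was 0.0572. Without βCat-GOF 2, which was low for all 10, the median was -0.13 and the smallest adjusted p 0.319.

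**Figure D4:**
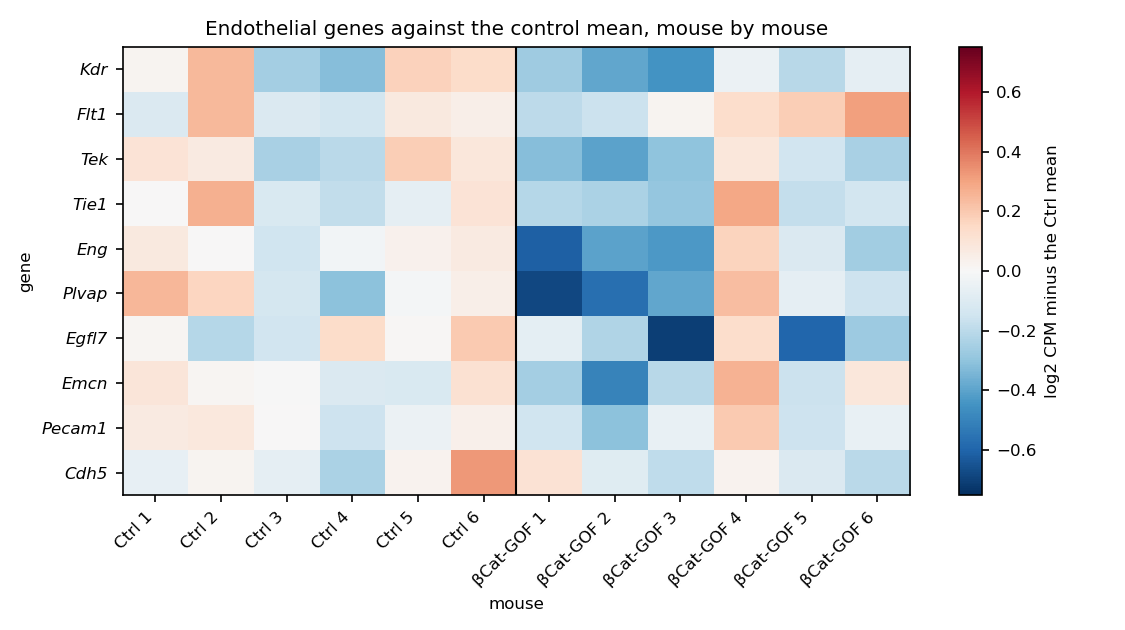
Deviation of each endothelial gene (rows) from its Ctrl mean in each mouse (columns), in log2 CPM, blue below and red above. βCat-GOF 2 is below in all 10 rows and βCat-GOF 4 in 1, and the deepest blue cells are *Egfl7* in βCat-GOF 3 (-0.71) and *Plvap* in βCat-GOF 1 (-0.68).

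With the group means removed, the log2 CPM of the 45 pairs of members had Pearson correlations from -0.23 (*Flt1* with *Egfl7*) to 0.89 (*Emcn* with *Pecam1*) over the 12 mice, with a median of 0.57. Against the mean of the other 9, *Egfl7* (0.26) and *Cdh5* (0.36) followed the rest least, *Flt1* had 0.56, and the other 7 had 0.78 to 0.88. The genes outside the list that followed the mean of the members most, of 11421 with a base mean above 100, were *Las1l* (r = 0.96, Spearman's rho = 0.96), *Pgs1*, *Smarcb1*, *Ddx27*, *Fkbp15*, *Tubg1*, *Gatad2a*, *Slc35c2*, *Pus1* and *Kri1* (r = 0.90). None of these 10 is in the lists of endothelial genes used here. The values share a library and its scaling, so this is a description of the 12 libraries, and r ranged from -0.94 to 0.96 over all 11421 genes. Without the 2 mice farthest from the median, r for the named 10 was 0.77 to 0.92.

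The mice that were low or high for the endothelial genes also differed in other cell types. Among the low mice, Ctrl 3 and 4 and βCat-GOF 1 and 2 are pairs whose labels repeat a stem. βCat-GOF 3, whose label repeats none, was about as low by the sum of the 10 genes (814 CPM, against 807 and 773 in βCat-GOF 1 and 2). βCat-GOF 1 differed least from βCat-GOF 2 over all genes (41.9 chi-square units per degree of freedom, against 85.1 to 145 from the other 4 mice of its group). The Ctrl pairs that repeat a stem were not closest in this way. Ctrl 4 differed more from Ctrl 3 (42.5) than from Ctrl 5 (33.5), and Ctrl 2 more from Ctrl 1 (45.8) than from Ctrl 5 (21.9). βCat-GOF 1 and 2, low for most members, had the lowest summed zona fasciculata (zF) markers of their group (35894 and 49206 CPM, against 62628 to 84491) and the highest zG markers (4769 and 4724 CPM, against 3651 to 4043). The zF list holds *Cyp11b1*, *Akr1b7*, *Mc2r*, *Star*, *Cyp21a1*, *Cyp11a1* and *Scarb1*. zG cells make the steroid aldosterone, so genes of steroid synthesis in this list need not be confined to the zF. Their level in zG cells was not tested, and the sum is no measure of the zone alone. βCat-GOF 3, also low for most, had high zF markers (80519 CPM), and βCat-GOF 4, high for most, the highest (84491 CPM). Ctrl 3 and 4, low for most, had the highest chromaffin markers. Their part in the levels of the endothelial genes was not tested. Without βCat-GOF 1 and 2, 8 of 10 members had a lower mean, and without Ctrl 3 and 4 9 of 10, again with none past the threshold. Fat that remains on a gland brings its own capillaries. Summed adipocyte markers ran from 201 to 956 CPM in Ctrl and from 266 to 778 in βCat-GOF adrenals. Ctrl 4 and βCat-GOF 3 were the highest by this sum. Yet βCat-GOF 3 had the lowest *Adipoq* of its group (122 normalized counts, against 566 in βCat-GOF 4), so the sum need not rank the glands by fat. Without Ctrl 4 and βCat-GOF 3 the median log2 fold change of the members was -0.15. The part of fat in the levels of the endothelial genes was not tested.

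Other genes of the vessel wall gave a wider view. Of 27 other pan-endothelial genes tested, 19 had a lower mean in βCat-GOF adrenals, the median log2 fold change was -0.14, 1 passed the cut-offs and that was *Clec14a*, a lectin-like surface protein of endothelium that takes part in sprouting. *Clec14a* lay between 358 and 482 normalized counts in Ctrl (median 387) and between 191 and 317 in βCat-GOF adrenals (median 262), so that every βCat-GOF mouse was below every Ctrl mouse. It was lower by a log2 fold change of -0.62 (SE 0.13, adjusted p = 0.0168). With each mouse left out in turn this ran from -0.68 to -0.55 and the adjusted p from 0.00758 to 0.0472, while without both Ctrl 3 and 4 the adjusted p was 0.0652. In the same list *Vwf* had -0.74 (adjusted p = 0.0776), *She* -0.40, *Cldn5* 0.33 and *Cd93* 0.30, of which none passed.

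Of 15 endothelial transcription factors, 10 had a lower mean and 0 passed all cut-offs. *Epas1* (HIF-2α) had 3309 to 3864 normalized counts in Ctrl and 2392 to 3346 in βCat-GOF adrenals, with an adjusted p of 0.0467 but a fold below 1.4 (log2 fold change -0.35). Its adjusted p was under 0.05 in 5 of 22 alternatives and reached 0.0978 with 1 mouse left out. *Gata2* (-0.84, adjusted p = 0.093) is also a gene of chromaffin cells, whose 9 markers had a median of -0.35 with 0 past the cut-offs (*Slc18a1* -0.53, *Phox2a* -0.74 and *Chga* -0.47, adjusted p = 0.171, 0.187 and 0.294). *Klf4* (1.65, adjusted p = 0.0925) had 1095 normalized counts in βCat-GOF 2 and 362 in the next mouse. The ETS factors *Erg* (-0.27, adjusted p = 0.17) and *Fli1* (-0.03, adjusted p = 0.91) did not pass.

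The genes of particular vessel beds gave no common direction. Sinusoidal and fenestrated capillary genes had 4 of 8 tested lower and 0 past the cut-offs, with *Lyve1* highest at 0.91 (adjusted p = 0.0702), *Stab1* at -0.22 and *Igfbp3* at 0.23. Arterial genes had 6 of 10 lower and 0 past the cut-offs, with *Hey2* at -0.52, *Unc5b* at -0.29 and *Gja4* at 0.23 (adjusted p = 0.319, 0.444 and 0.363). Among 6 venous and activated endothelial genes 0 passed, and *Sele* (E-selectin) came closest with 0.84 (60.8 to 122 normalized counts in Ctrl, 119 to 219 in βCat-GOF adrenals, adjusted p = 0.0516). *Ephb4* had -0.24 and *Nr2f2* 0.19. All 4 genes tested in the lymphatic list had a lower mean, *Prox1* (-0.21), *Pdpn* (-0.35), *Reln* (-0.22) and *Mmrn1*, with 0 past the cut-offs. *Lyve1*, also a lymphatic marker, was listed with the sinusoidal genes and went the other way, so the shared direction depends on the list. *Prox1* (at least 862 normalized counts) stood far above *Pdpn* (at most 103) and *Reln* (at most 46.2), and which cells it came from was not tested.

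Of 7 tip cell and apelin genes tested, 1 passed. *Cxcr4*, a chemokine receptor of sprouting tips and of leukocytes, was higher by 1.24 on the log2 scale (SE 0.32, adjusted p = 0.0476), with 386 to 1035 normalized counts in Ctrl and 671 to 2199 in βCat-GOF adrenals. This call was lost in 9 of the 12 fits that left out 1 mouse (all but those without Ctrl 3 or βCat-GOF 4 or 6), with an adjusted p of up to 0.103. Of 7 genes that respond to Wnt in the barrier endothelium of the brain, *Apcdd1*, a Wnt antagonist also made by other cells, was higher by 1.45 (SE 0.25, adjusted p = 0.00625) in 6 of 6 βCat-GOF mice. Of these 7 genes 6 had a higher mean, the median was 0.16 and 1 passed. The study counts *Apcdd1* among the established targets of β-catenin that were raised in βCat-GOF adrenals. Which cells its RNA came from was not tested here.

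**Figure D5:**
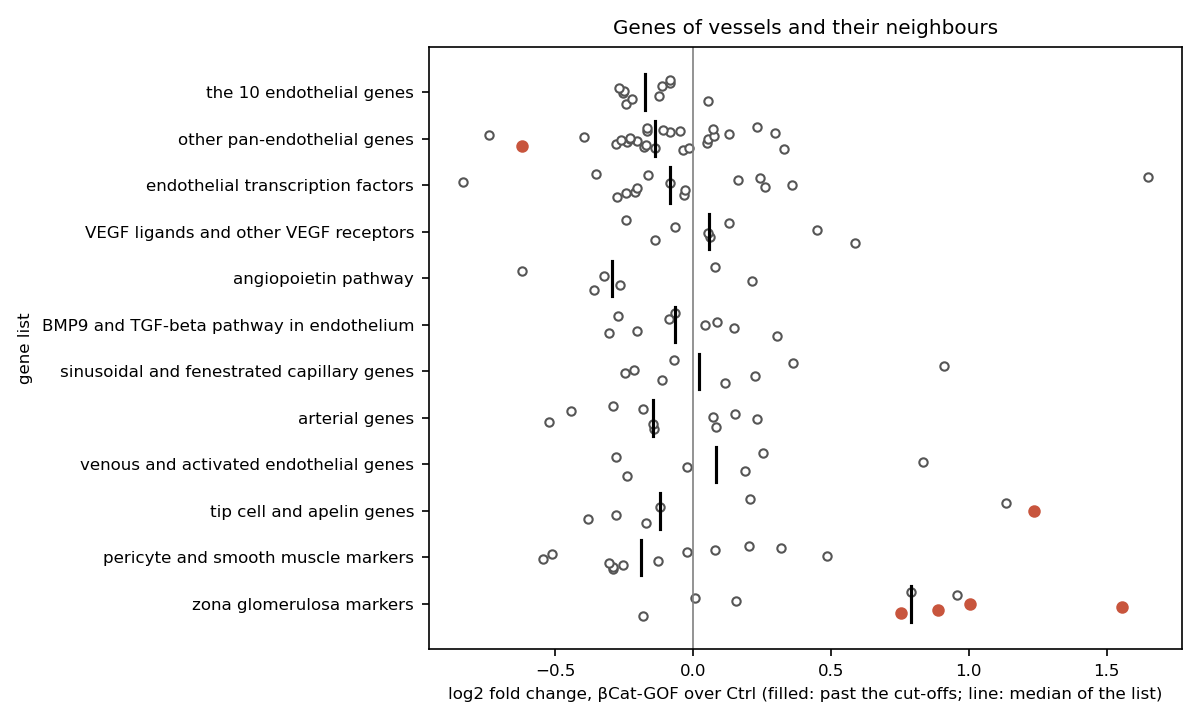
log2 fold change (βCat-GOF over Ctrl, x axis) of single genes in the 10 endothelial genes, other lists of vessel genes and zG markers (rows). Filled points passed the cut-offs and the vertical line is the median of each list. The median is -0.17 for the 10 genes, -0.14 for the other pan-endothelial genes, and 0.79 for the zG markers, of which 4 passed.

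Around the endothelium, 12 pericyte and smooth muscle markers had a median log2 fold change of -0.19, with 8 lower and 0 past the cut-offs. *Myh11* (-0.51, adjusted p = 0.116) did not overlap between the groups, *Abcc9*, a pericyte channel subunit, had -0.31 (adjusted p = 0.11) and *Acta2* 0.48 (adjusted p = 0.101). Capsule and fibroblast markers (8 tested, 4 lower) had 0 past the cut-offs, with *Gli1* at 0.53, *Dcn* at -0.47 and *Pdgfra* at -0.23. Of 8 macrophage markers, 7 had a lower mean and *Adgre1* passed (-0.78, adjusted p = 0.0459), a call lost in 9 of 12 fits without 1 mouse (all but those without Ctrl 2 or βCat-GOF 1 or 5). Blood cell markers (7 tested) had 0 past the cut-offs, with the platelet genes *Itga2b* at 0.67 and *Pf4* at -0.72 and *Alas2*, an enzyme of heme synthesis, at 0.51. Of the 9 zG markers, *Dab2* (0.75), *Agtr1a* (0.89), *Agtr1b* (1.55) and *Vsnl1* (1.00) were past all 3 limits in the higher direction. The call of *Dab2* was lost in 3 of 12 fits without 1 mouse (those without Ctrl 4, 5 or 6, adjusted p up to 0.0564). Of the 7 zF markers *Akr1b7* passed (1.48, adjusted p = 0.0458), which was lost in 10 of 12 fits without 1 mouse (all but those without βCat-GOF 1 or 2). Among 9 adipocyte markers tested 0 passed, with *Plin1* at 0.64, *Cidea* at 1.54 and *Adipoq* at -0.83.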

How the data were processed

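The authors trimmed adapters with cutadapt, aligned reads to mm10 with STAR, counted them per gene with featureCounts 1.4.4 and used DESeq2 1.6.3. They deposited counts without normalization for 39017 genes and a signal table in which each library's counts are divided by 1 factor. The annotation release and strand setting are not given in the sources used here. Every column was mapped (0 left over).

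The counts of all genes were tested with edgeR 4.0.16 in R 4.3.3 (TMM, filterByExpr, quasi-likelihood test, two-sided), 6 against 6 mice. Normalized counts use DESeq2 1.42.0 median-of-ratios factors. Log2 CPM has a prior count of 2, and ratios a pseudocount of 1. Ratios were tested over all 924 splits of the mice. Positions and exons are those of GENCODE M21, flanks and miRNA those of RefSeq, both on GRCm38, the assembly of mm10. Scripts were tested on simulated data.

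The genes named are the 10 members, *Vegfa*, *Angpt1* and *Angpt2*, in each other list those past the cut-offs or else the 3 with the smallest p, and the 10 genes most correlated with the members. *Vwf*, *She*, *Cldn5*, *Cd93*, *Erg*, *Fli1* and *Mmrn1* were added after their values were seen. The members and lists were chosen with earlier results of these data known. Of the labels, 3 pairs share a stem (Ctrl 1 and 2, Ctrl 3 and 4, βCat-GOF 1 and 2). Counts within these pairs differed by 41.9 to 45.8 chi-square units per degree of freedom, within the 16.8 to 145 of other pairs, so each library was kept as a mouse, though the labels do not say whether a pair is 1 animal. Alternatives were DESeq2, its size factors in edgeR, other filters, the adjusted p alone, 1 surrogate variable from sva 3.50.0, other pseudocounts and leaving out mice. Leaving out βCat-GOF 1 and 2, Ctrl 3 and 4, or Ctrl 4 and βCat-GOF 3 was chosen after seeing the data.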

Additional observations from a re-analysis of the deposited data

Results flagged for a closer look

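In each group of 6 mice the highest and lowest values were set against their nearest neighbour (Dixon's test at the 95% level), over 122 groups from 61 genes and ratios. Chance flags about 1 in 20 groups, and 5 were flagged here. Of the endothelial genes, *Tie1* was flagged for βCat-GOF 4, with 1770 normalized counts against 1338 in the next mouse. *Klf4* was flagged for βCat-GOF 2 (1095, next 362), *Stab1* for Ctrl 3 as the lowest (1087, next 1510), *Prox1* for Ctrl 2 (2041, next 1479) and *Agtr1a* for Ctrl 3 (4464, next 3444).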

How the results depend on the processing

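None of the 10 members passed the adjusted threshold under any alternative, and 217 of the 220 refitted log2 fold changes of the members kept their sign. The 3 that turned were *Flt1* with 1 surrogate variable (-0.035) and without βCat-GOF 6 (-0.0082, within -0.0082 to 0.112 over the mice left out in turn), and *Emcn* without βCat-GOF 1 and 2 (0.0079). With DESeq2 0 of the 10 had an unadjusted p under 0.05. The count of genes called higher was 222, and 363 with DESeq2, 146 to 340 with 1 mouse left out, 440 without βCat-GOF 1 and 2, and 141 without Ctrl 4 and βCat-GOF 3. The count of genes called lower was 130, and 283 with DESeq2, 228 on the adjusted p alone, 228 without the mice whose label repeats a stem, 80 without the mouse of another number, 61 to 223 with 1 mouse left out, 470 without βCat-GOF 1 and 2, 84 without Ctrl 3 and 4, and 66 without Ctrl 4 and βCat-GOF 3. The *Flt1* to *Kdr* difference was 0.33 without the repeated stems (adjusted p = 0.0635) and 0.26 without the mouse of another number (adjusted p = 0.0519), in exact permutation tests, and 0.25 to 0.33 with 1 mouse left out. The *Angpt2* to *Angpt1* difference turned to -0.11 without the repeated stems and -0.069 without the mouse of another number, and ran from -0.26 to 0.29 with 1 mouse left out. *Unc5b* turned to 0.026 with 1 surrogate variable, and *Adipoq* to 0.35 without Ctrl 3 and 4 and 0.044 without Ctrl 4 and βCat-GOF 3. The causes were not tested. No paired analysis was possible because the replicate numbers follow the order of the samples and pair no mice.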
